A study of Mus musculus with 2 samples.

Results

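NF-κB genes were taken from the deposited count table by symbol: 10 genes of its 20003, all present in both libraries. They encode 4 of the NF-κB subunits (Nfkb1, Nfkb2, Rel and Relb), 2 inhibitors that hold NF-κB in the cytoplasm (Nfkbia and Nfkbie), 2 nuclear relatives of those inhibitors (Nfkbiz and Nfkbid), and 2 enzymes that limit NF-κB output (Tnfaip3 and Zc3h12a). The series asked how a Hedgehog inhibitor alters the macrophage transcriptome. It holds 1 library labelled M2+GANT61 and 1 labelled M2+DMSO, from cells labelled RAW 264.7, a mouse macrophage line transformed by a leukaemia virus. GANT61, an inhibitor of the GLI transcription factors that end the Hedgehog pathway, was given at 10 µM, and DMSO is its solvent. Per the labels' protocols, cells of both groups received M-CSF at 20 ng/mL, then GANT61 or DMSO, and 4 h later IL-4 at 10 ng/mL, a cytokine pair used to polarise macrophages to the M2 state. The time with IL-4 is given as 15 min in one protocol text and 24 h in another. Each group has a single library, so differences could not be set against a spread between replicates and were not tested. Every interval below is at the 95% level and covers counting error only.

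NF-κB is a family of dimeric transcription factors built from subunits that share the Rel homology domain. In resting cells IκB proteins mask the dimers in the cytoplasm. Signals from Toll-like, interleukin 1 and TNF receptors activate the IKK kinases, which mark IκB for destruction and free the dimers. In macrophages the freed dimers induce cytokines, chemokines and survival genes. They also induce IκB genes, ubiquitin-editing enzymes and RNA-degrading enzymes that end the response. Many NF-κB genes are therefore themselves NF-κB targets.

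Because several of these genes are classical NF-κB targets, their promoters are shown before the values. RefSeq promoter windows (GRCm38.p6), each running from 250 bases before to 50 bases after an annotated start, covered 7 of the 10 genes in 12 windows. The others were Nfkb1, Relb and Nfkbiz. The κB consensus motif, the decameric site bound by NF-κB dimers, was searched on both strands. It was found in 8 of the 12 windows, and in 6 of the 7 genes: Nfkbia, Nfkbie, Nfkbid, Nfkb2, Rel and Tnfaip3. Over all promoter windows of the same length, 4.51% of 32851 held a match. Genes with several starts have more chances of one: 9.26% of all genes with 2 or 3 windows held a match, against 4.26% of genes with 1 window. The 12 stretches of 1 or more overlapping matches over these windows were 11 distinct places, since the windows of the later Nfkb2 starts overlap. Zc3h12a held no match in its window. For each of the 6 genes, 1 stretch that carries a match is printed 5′ to 3′ along the gene's strand, with the matching bases in capitals.
Nfkbia: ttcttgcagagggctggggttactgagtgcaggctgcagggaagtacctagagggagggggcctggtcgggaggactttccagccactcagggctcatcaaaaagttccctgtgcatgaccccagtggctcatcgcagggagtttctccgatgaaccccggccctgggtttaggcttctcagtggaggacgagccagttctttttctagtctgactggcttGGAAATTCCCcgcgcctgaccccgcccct
Tnfaip3: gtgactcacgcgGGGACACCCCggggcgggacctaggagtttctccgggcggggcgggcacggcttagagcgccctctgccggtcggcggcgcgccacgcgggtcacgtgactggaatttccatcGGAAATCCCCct
Rel: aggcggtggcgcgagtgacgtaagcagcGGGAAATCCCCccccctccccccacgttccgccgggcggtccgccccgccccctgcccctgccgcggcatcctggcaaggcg
Nfkbie: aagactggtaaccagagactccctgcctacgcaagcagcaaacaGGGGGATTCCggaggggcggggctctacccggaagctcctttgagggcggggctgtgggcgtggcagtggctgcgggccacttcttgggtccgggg
Nfkbid: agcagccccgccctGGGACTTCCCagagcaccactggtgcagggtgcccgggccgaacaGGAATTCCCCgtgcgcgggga
Nfkb2: cgtcacGGGAATTCCCCccctcggggggcc
The Nfkbia stretch is chr12:55492648-55492897 on the minus strand, all 250 bases before the start, and its match begins 29 bases before the start. The Tnfaip3 stretch is chr10:19015411-19015547 on the minus strand, with matches that begin 125 and 12 bases before the start. The Rel stretch is chr11:23770980-23771089 on the minus strand, with overlapping matches from 92 bases before the start. The Nfkbie stretch, chr17:45555550-45555689 on the plus strand, has its match 106 bases before the start. The Nfkbid stretch belongs to the second of 3 annotated starts, chr7:30422166-30422245 on the plus strand, with matches 226 and 181 bases before that start. The Nfkb2 stretch is 30 bases of the first window, chr19:46304692-46304721 on the plus strand, around overlapping matches from 39 bases before the start. The other Nfkb2 matches, 11 bases before that start and in the windows of the later starts, are not printed. A match describes these letters and is not evidence of binding in these libraries.

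**Figure D1:**
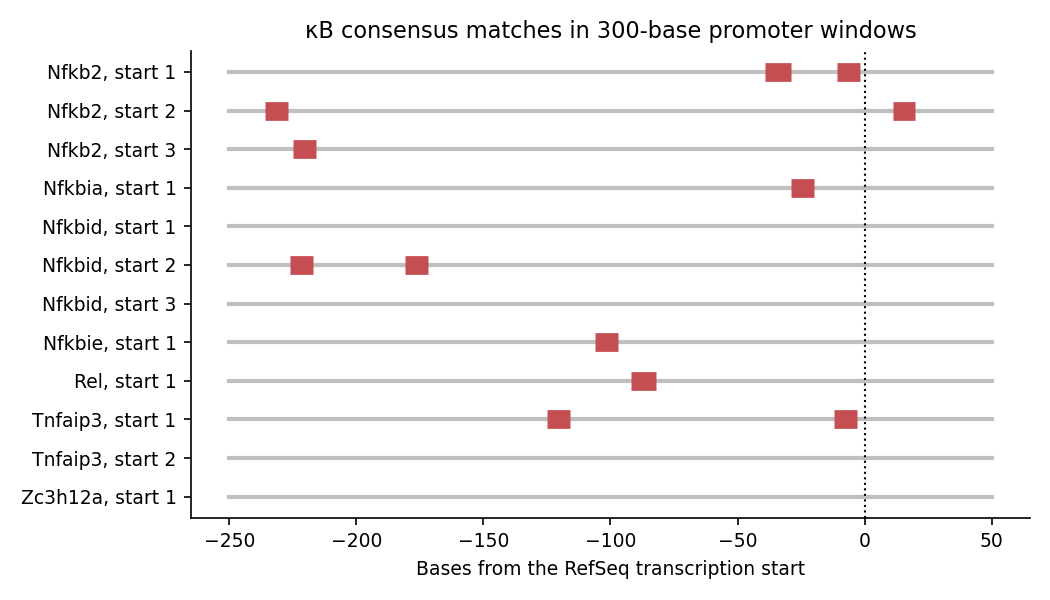
Positions of κB consensus matches (red blocks) in the 12 promoter windows of 7 genes (grey lines); the horizontal axis is the distance in bases from each RefSeq start, and the dotted line is the start. Matches lie in 8 windows, and reach within 29 bases of the start in those of Nfkbia, Tnfaip3 and the first and second Nfkb2 starts.

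The markers of the labelled cell type were present, but so were those of many others. The libraries totalled 61632784 (M2+DMSO) and 57705874 (M2+GANT61) counts. All 20 macrophage markers reached a scaled counts-per-million (CPM) level of 10 in both libraries, and their summed level was 5389.9 CPM in the M2+DMSO library and 11238 CPM in the M2+GANT61 library. Of 65 genes that mark other cells, 50 stood at 10 CPM or more in each library and 0 were without reads, which goes against a culture of 1 macrophage line. Fibroblast markers summed to 9154 and 9341 CPM, with 0 of 8 higher and 1 lower by the rule of size given below. CPM are not scaled to gene length and the lists differ in size, so these sums do not rank the cell types. Adipocyte markers summed to 5005 and 733 CPM, with 7 of 7 lower. Neutrophil markers summed to 192 and 857 CPM, with 6 of 8 considered higher and 1 lower. Ltf alone gave 93.1 and 403 CPM of those sums. The 6 neutrophil markers that were higher were Mmp8, S100a9, Cxcr2, S100a8, Ltf and Csf3r, with ratios of 9.95, 6.62, 6.14, 5.23, 4.33 and 4.01, and Csf3r had 1749 and 6367 counts. Ngp was lower, at 0.584, and Retnlg had a ratio of 1.12. The other 4, Ly6g (13 and 31 counts) and the granule genes Mpo, Elane and Camp, were below 1 CPM in both libraries. Epithelial markers summed to 3145 and 2756 CPM (1 of 6 higher, 1 lower) and endothelial markers to 523 and 447 CPM (0 of 6 higher, 2 lower). Dendritic, mast, T and NK, and B cell markers each summed to between 89.0 and 239 CPM in either library, with 3 of 6, 2 of 7, 1 of 7 and 1 of 6 higher. Which cells carried the NF-κB transcripts was not tested.

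The 10 genes split into a set of 5 that met the rule for a higher level in the M2+GANT61 library and a set of 5 that did not. The rule asked for a ratio of scaled counts, M2+GANT61 over M2+DMSO, of at least 1.5, an interval that excluded 1, and a mean of at least 1 CPM. Zc3h12a, Nfkbiz, Rel, Tnfaip3 and Nfkbid met it, none met the mirror rule for lower, and all 10 ratios were above 1. Of the 13939 genes considered, 14.1% were higher and 10.3% lower by the same rule, and 49% had a ratio above 1. With a ratio of at least 2 in the rule, 6.97% of all genes were higher, and the 5 genes still met it, Nfkbid only just, at 2.003. The median log2 ratio was 0.76 over the 10 genes and -0.01 over all genes considered. These genes were chosen with earlier results of these data known, so the count is a description. The cells are labelled as a macrophage line, and 17 of 20 macrophage markers were also higher. Of these 20, 1 was lower, Cx3cr1 at 0.508, and the median ratio over the 20 was 1.92. Neutrophil markers and other inflammatory genes moved too, as given above and below, and the part of any of these in the ratios was not tested. In bulk RNA, more cells of a type and more RNA per cell cannot be told apart.

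Among the 4 subunit genes of the group, Rel differed most between the libraries and Nfkb1 least. Rel encodes c-Rel, a subunit with a strong activation domain that is prominent in immune cells. Rel had 243 counts, 3.88 CPM, in the M2+DMSO library and 552 counts, 9.71 CPM, in the M2+GANT61 library. Its ratio was 2.499 (2.15 to 2.92), so it met the rule, at the second lowest level of the 10 genes. Relb encodes the main dimer partner in the alternative NF-κB pathway. It was at 32.9 CPM in the M2+DMSO library and 46.9 CPM in the M2+GANT61 library, a ratio of 1.42 (1.34 to 1.51), below the threshold. Nfkb2, whose precursor protein is processed in that same alternative pathway, was at 119 and 143 CPM in the M2+DMSO and M2+GANT61 libraries, a ratio of 1.20 (1.17 to 1.24). Nfkb1, whose product pairs with RelA in the classical pathway, had levels of 182 and 207 CPM and a ratio of 1.14 (1.11 to 1.17). The interval of each of these 4 ratios lay above 1, and those of Rel and Nfkb1 lay far apart. The fifth subunit gene, Rela, encodes the main activating subunit of the classical dimer and was read for comparison. It was at 89.0 CPM in the M2+DMSO library and 84.4 CPM in the M2+GANT61 library, a ratio of 0.949 (0.913 to 0.987), nearer to 1 than that of Nfkb1.

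The make-up of the subunit transcripts was compared per length, as RPKM (reads scaled to gene model length and library size, the authors' deposited values). Summed over the 5 subunit genes, RPKM was 103 in the M2+DMSO library and 119 in the M2+GANT61 library. Rela made up 25.7% of that sum in the M2+DMSO library and 21.1% in the M2+GANT61 library. The difference, M2+GANT61 minus M2+DMSO, was -4.60 percentage points for Rela and -0.52 for Nfkb1, the other subunit gene with a smaller share in the M2+GANT61 library. Relb made up 11.5% and 14.2%, and Rel 1.15% and 2.497%. Rel stayed the least abundant subunit in both libraries even though its ratio was the largest of the 5. Nfkb1 took 33.9% and 33.4% and Nfkb2 27.8% and 28.9%, so these genes for processed precursors gave the largest shares in both libraries. Set against Rela within each library, Rel was 0.045 of its level in the M2+DMSO library and 0.119 of it in the M2+GANT61 library.

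**Figure D2:**
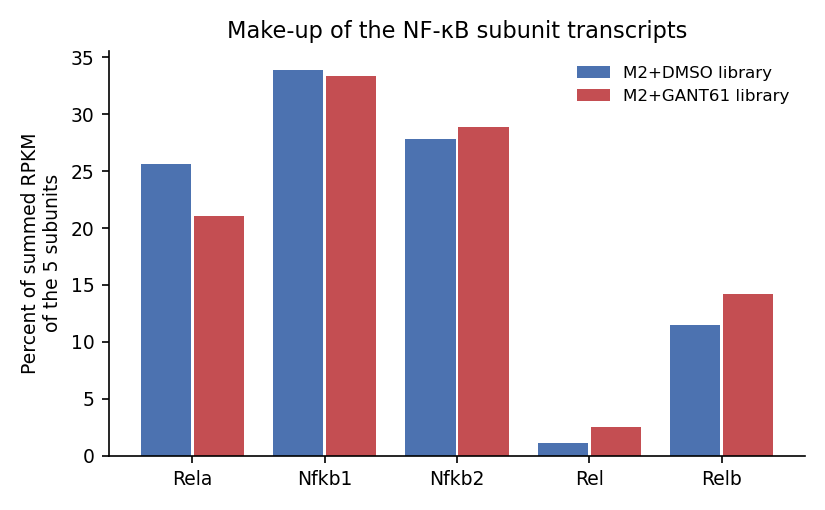
Share of each NF-κB subunit gene in the summed RPKM of the 5 genes, in percent, for the M2+DMSO (blue) and M2+GANT61 (red) library, 1 library each, with no error bars. The Rela bars stand at 25.7% and 21.1%, and Relb and Rel take larger shares in the M2+GANT61 library.

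The cytoplasmic inhibitors did not meet the rule. Nfkbia encodes IκBα, the fast negative feedback inhibitor that NF-κB induces within its own response. It had 7988 counts, 128 CPM, in the M2+DMSO library and 10164 counts, 179 CPM, in the M2+GANT61 library. Its ratio was 1.40 (1.36 to 1.44). Nfkbie encodes IκBε, a slower inhibitor that also retains c-Rel and RelA. Its levels were 40.5 and 53.0 CPM in the M2+DMSO and M2+GANT61 libraries, a ratio of 1.31 (1.24 to 1.38). The intervals of the 2 inhibitors overlapped, and the difference between their ratios was not tested. Per length, Nfkbia was at 2.42 times the RPKM of Rela in the M2+DMSO library and 3.57 times in the M2+GANT61 library. Nfkbie was at 0.206 and 0.192 of the RPKM of Nfkbia, a similar proportion in each library.

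The nuclear IκB genes were both higher in the M2+GANT61 library. Nfkbiz encodes IκBζ, which is made early in a response and then helps NF-κB activate secondary genes such as Il6. It had 1138 counts, 18.2 CPM, in the M2+DMSO library and 3292 counts, 57.9 CPM, in the M2+GANT61 library, a ratio of 3.18 (2.98 to 3.41). Nfkbid encodes a nuclear IκB that binds Nfkb1 products. It had 162 counts, 2.59 CPM, and 295 counts, 5.19 CPM, a ratio of 2.003 (1.65 to 2.44), the widest interval of the group in proportion to its value. Nfkbiz and Nfkbid had intervals that did not overlap. Against Nfkbia, the RPKM of Nfkbiz was 0.058 in the M2+DMSO library and 0.132 in the M2+GANT61 library, so the nuclear IκB transcript was nearer in level to the cytoplasmic one in the M2+GANT61 library.

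The feedback enzymes were both higher as well. Zc3h12a encodes regnase, an RNase that degrades cytokine mRNAs such as Il6. It had 662 counts, 10.6 CPM, in the M2+DMSO library and 1929 counts, 33.9 CPM, in the M2+GANT61 library. Its ratio, 3.21 (2.94 to 3.51), was the largest of the 10. Tnfaip3 encodes a ubiquitin-editing enzyme that shuts off signalling between receptors and IKK. It had 3427 counts, 54.8 CPM, and 6508 counts, 115 CPM, a ratio of 2.09 (2.01 to 2.18). The Zc3h12a and Nfkbiz intervals overlapped, as did those of Rel and Tnfaip3. Between Nfkbid, the lowest ratio that met the rule, and Relb, the highest that did not, the intervals did not overlap.

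**Figure D3:**
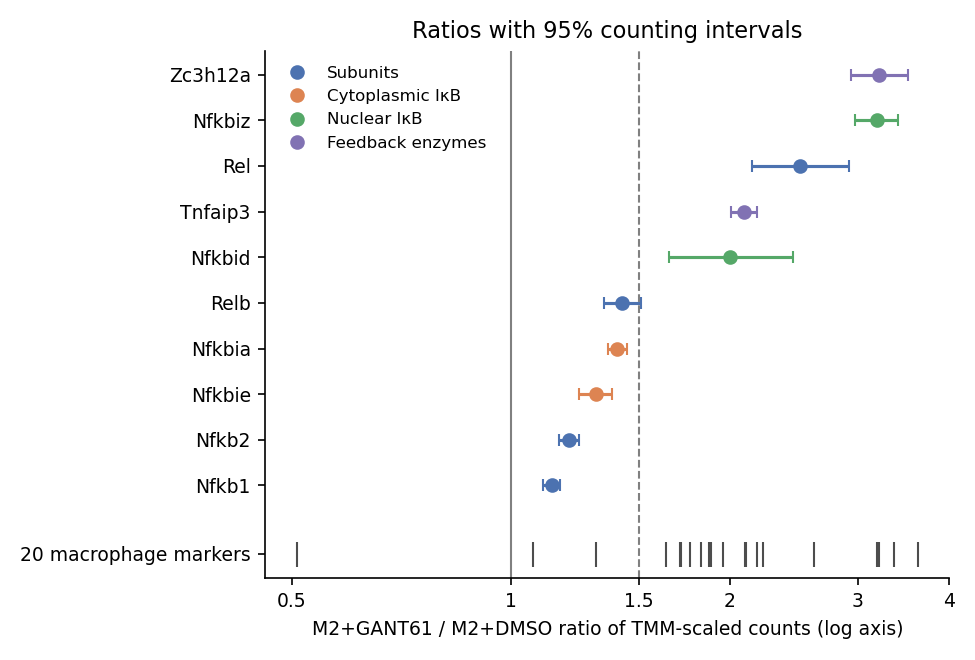
Ratio of scaled counts, M2+GANT61 over M2+DMSO, on a log axis, for the 10 genes coloured by role, with 95% counting intervals; ticks at the bottom are 20 macrophage markers, and the dashed line is the 1.5 threshold. Zc3h12a, Nfkbiz, Rel, Tnfaip3 and Nfkbid lie beyond the threshold, and the macrophage markers spread from 0.508 to 3.63.

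Per length, the genes that met the rule were the less abundant ones in the M2+DMSO library. In RPKM the order there was Nfkbia at 64.1, Nfkb1 at 34.99, Nfkb2 at 28.7, Nfkbie at 13.2 and Relb at 11.9. Below them came Tnfaip3 at 9.45, Nfkbiz at 3.72, Zc3h12a at 2.99, Rel at 1.19 and Nfkbid at 0.919. Per length, all 5 genes that met the rule stood below all 5 that did not. By scaled counts the order differed, since Tnfaip3 at 54.8 CPM stood above Nfkbie at 40.5 and Relb at 32.9 CPM. The M2+DMSO level is also the denominator of the ratio, so this order and the ratios share that value. Rel and Nfkbid were the only neighbours in that order with overlapping counting intervals. In the M2+GANT61 library the order was the same except for Tnfaip3, which stood at 19.7, above Nfkbie at 17.2 and Relb at 16.8, whose intervals overlapped. Nfkbia was again highest, at 89.5, and Nfkbid lowest, at 1.84. The span from the highest to the lowest gene was 69.7 times in the M2+DMSO library and 48.7 times in the M2+GANT61 library.

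**Figure D4:**
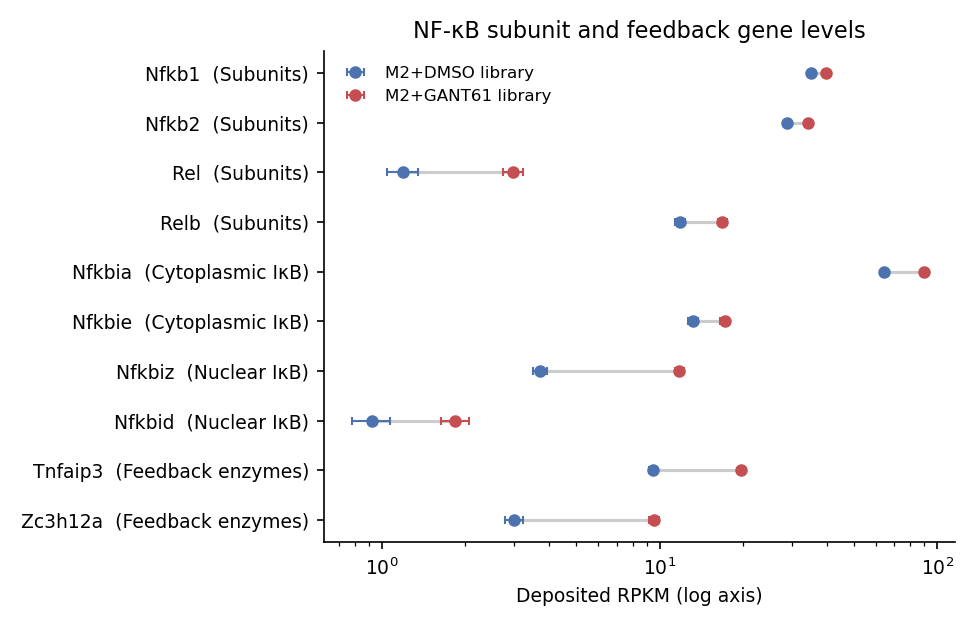
Deposited RPKM of each of the 10 genes on a log axis in the M2+DMSO (blue) and M2+GANT61 (red) library, with 95% counting intervals. The red point lies to the right for every gene, with long gaps for Rel, Nfkbiz, Nfkbid, Tnfaip3 and Zc3h12a and short ones for Nfkb1 and Nfkb2.

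The rest of the pathway did not show a share of higher genes like that of the 10. Of 60 other pathway genes, 59 reached 1 CPM, of which 9 were higher and 0 lower, with a median log2 ratio of 0.26. That is 15.3% higher, near the 14.1% of all genes. A ratio above 1 was more common in this list, at 44 of 59 genes, beside 49% of all genes considered. The 0 lower stand beside 10.3% of all genes, and the median beside -0.01. Of the other subunit and IκB genes, 0 of 4 were called. Bcl3, a nuclear IκB like Nfkbiz, had a ratio of 1.4998 (1.41 to 1.60), just under the threshold, and Nfkbib, the gene of IκBβ, of 1.20 (1.12 to 1.29). Of 11 IKK and IKK-linked genes 0 were called. Ikbkb, the catalytic IKK subunit of the classical pathway, had levels of 72.01 and 95.4 CPM and a ratio of 1.32 (1.27 to 1.38), and Tab2, an adaptor of the kinase upstream, had a ratio of 1.32 (1.28 to 1.36).

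Upstream, 2 of 8 receptors were higher: Tnfrsf11a, the receptor RANK, at 1.87 (1.70 to 2.06), and Tlr4, the lipopolysaccharide receptor, at 1.58 (1.53 to 1.64). Among adaptors and ubiquitin ligases, 4 of 19 were higher. Card9, an adaptor of fungal lectin receptors, had a ratio of 2.42 (2.12 to 2.75), Birc3, a ubiquitin ligase, of 1.71 (1.64 to 1.78) and Malt1, a paracaspase, of 1.67 (1.59 to 1.76). Other ubiquitin feedback genes gave 2 of 9 higher. They were Tnip3 at 2.21 (1.97 to 2.48) and Tnip2 at 1.65 (1.54 to 1.78), which encode partners of the Tnfaip3 product. Among other RNA decay genes 1 of 8 considered was higher, Zc3h12d, a relative of Zc3h12a, at 2.32 (2.09 to 2.59). Most genes of each of these roles, signal transmission and feedback alike, did not meet the rule.

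NF-κB target genes gave a larger share than the 10 genes. Of 26 textbook targets, 25 reached 1 CPM, and 18 of these were higher and 0 lower, with a median log2 ratio of 1.55. That is 72% higher, beside 14.1% of all genes considered. The targets too were listed with earlier results of these data known, so their count is a description. Among cytokines and chemokines 11 of 13 considered were higher. The largest ratios were those of Il1a, an alarm cytokine, at 9.32 (8.76 to 9.94), Csf3, the granulocyte growth factor, at 6.34 (5.70 to 7.08) and Cxcl2, a chemokine for neutrophils, at 6.03 (5.495 to 6.64). Among adhesion, enzyme and survival genes 7 of 12 were higher. Nos2, the inducible nitric oxide synthase, had a ratio of 5.30 (5.07 to 5.54), Mmp9, a gelatinase, of 4.29 (4.19 to 4.39) and Ptgs2, the inducible cyclooxygenase, of 3.97 (3.75 to 4.205). These 6 genes were named for having the largest ratios of their roles, and all 6 ratios were above those of Zc3h12a and Nfkbiz. The median ratio over the 25 targets considered, 2.93, was below both, and the lowest was 0.973.

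**Figure D5:**
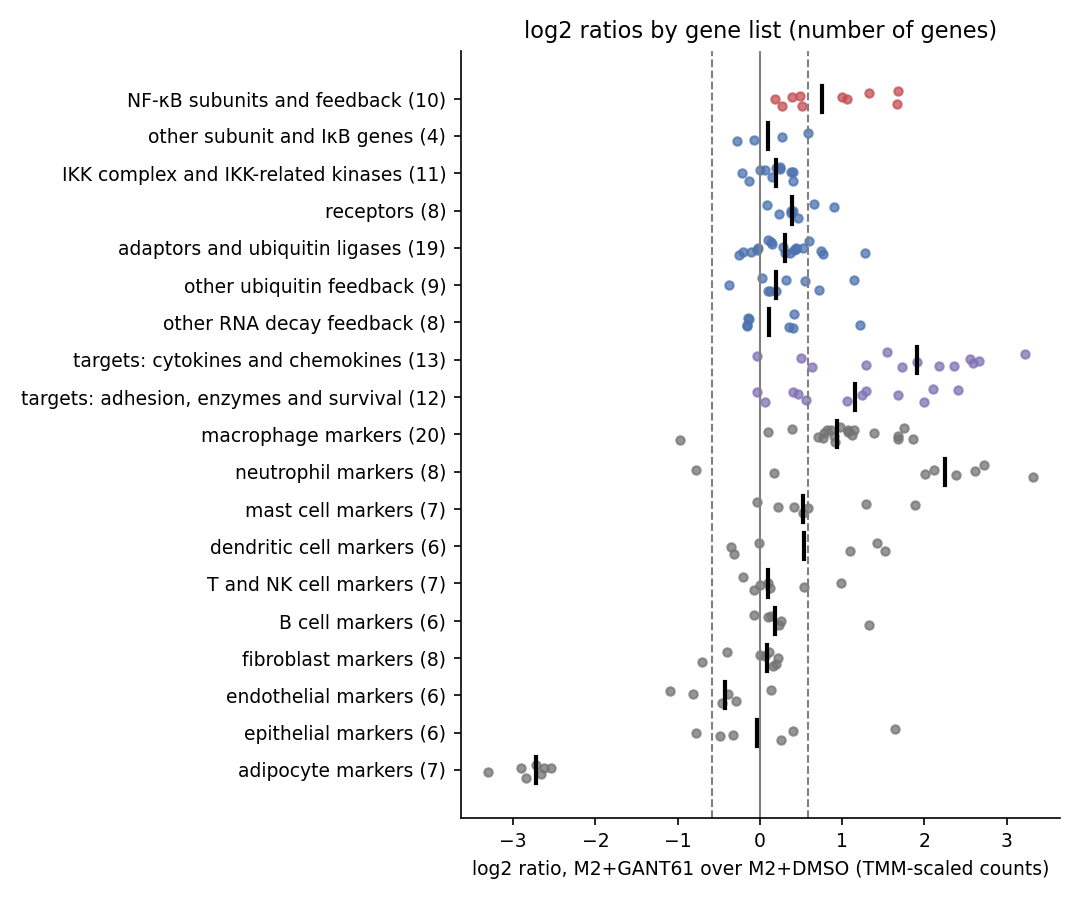
log2 ratio, M2+GANT61 over M2+DMSO, of each gene at a mean of 1 CPM or more, by list with the number of genes; black bars are medians and dashed lines mark a ratio of 1.5 in either direction. The 10 NF-κB genes (red) have a median of 0.76, between other pathway genes (blue) and the cytokine targets (purple), and adipocyte markers lie far to the left.

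Set beside the macrophage markers, the 10 genes fell on both sides. The ratios of Zc3h12a and Nfkbiz were 1.67 and 1.66 times the median macrophage marker ratio, and 3 and 4 of the 20 markers had larger ratios than theirs. Rel stood at 1.30 times that median, with 5 markers above it. Tnfaip3 and Nfkbid were near the median, at 1.09 and 1.04 times, each with 9 markers above. Relb, Nfkbia, Nfkbie, Nfkb2 and Nfkb1 stood at 0.742, 0.730, 0.681, 0.626 and 0.593 times it, each with 17 or 18 of the 20 markers above. So the subunit genes other than Rel, and the cytoplasmic inhibitors, differed less between the libraries than most macrophage markers did. Other marker lists give other yardsticks. The 8 neutrophil markers considered had a median ratio of 4.76, above the ratio of each of the 10 genes. Over the 61 considered markers of all cells other than macrophages, the median ratio was 1.08.

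Positions on mm10 are from GENCODE, and only the overlap of Nfkb2 with Psd was examined. Other overlaps were not searched for. Zc3h12a lies on chromosome 4 at 125118423 to 125127840, minus strand, Nfkbiz on chromosome 16 at 55811375 to 55838899, minus strand, and Rel on chromosome 11 at 23736847 to 23770970, minus strand. Tnfaip3 is on chromosome 10 at 19000910 to 19015657, minus strand, and Nfkbid on chromosome 7 at 30421732 to 30428746, plus strand. Nfkb2, on chromosome 19 at 46304320 to 46312385, plus strand, shares 299 bases at its end with Psd on the other strand. Psd was at 2.89 and 2.78 CPM, far below Nfkb2 at 119 and 143 CPM. The counting is not stated to use strand. By the GENCODE positions, the printed promoter stretches of Tnfaip3, Nfkbid and Nfkb2 lie inside the gene. GENCODE places the first start of each further upstream than the RefSeq start used for its stretch. Of the 10 genes 5 had whole counts in both libraries, and the others were within 0.46 of a whole count.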

How the data were processed

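Messenger RNA of 2 libraries, 1 per group, was analysed. The authors deposited estimated counts per gene (expected counts, not normalized) and RPKM values, with 1 column per library, tied to its library by the treatment in its name. Per the submitters' processing notes, the tools included Partek, SAMtools, STAR, cutadapt and HISAT2, and the builds hg19 and mm10. Their versions and roles, the counter, its annotation and its use of strand are not given in the sources used here. Counts were rounded and scaled with the TMM factors of edgeR (trimmed means of log ratios, version 4.0.16 under R 4.3.3). CPM are scaled values. Ratios used a prior count of 0.5 per library and exact Clopper-Pearson 95% intervals (scipy 1.17.1). RPKM intervals are exact Poisson. These cover counting error only, within 1 library per group. They treat every read as separate, although PCR copies were not marked by molecular identifiers. A count of 0 would allow 3 counts, 0.0479 CPM (M2+DMSO) or 0.0528 CPM (M2+GANT61). The ratio code was tested on simulated data. The 10 genes, the lists, the markers and the motif were chosen with earlier results of these data known. Genes named are the 10 and Rela, Bcl3, Nfkbib and Ikbkb, plus, per role of the pathway and target lists, up to 3 called genes with the largest and 3 with the smallest ratio, or else the most abundant. Neutrophil markers given singly and Psd were chosen after their values were seen. Alternatives covered DESeq2 1.42.0 size factors, upper quartile and total scaling, RPKM, the prior count, the fold threshold and the filter.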

Additional observations from a re-analysis of the deposited data

How the results depend on the processing

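Over 5 other choices of scaling, value or prior count (DESeq2 size factors, upper quartile factors, column totals, deposited RPKM, a prior count of 5), all 50 recomputed ratios of the 10 genes stayed above 1 and kept their call, and the largest move was -3.02%. A change of scaling factors multiplies the ratios of all genes by the same number, so the 50 are not separate checks. With a fold threshold of 2 the number of the 10 genes that were higher was still 5, beside 6.97% of all genes, while pathway genes gave 3 and macrophage markers 9. That 5 rests on Nfkbid at 2.003, which lay below 2, at 1.94 to 1.997, under each of the 5 other choices. With a mean of at least 10 CPM, Rel and Nfkbid were left out by construction. Of the 8 genes left, 3 were higher, and the median log2 ratio over the 8 was 0.50. Over all genes at that filter, 1150 were higher and 779 lower, and the median log2 ratio was -0.016. The number of genes that passed that filter was not recorded, so 3 of 8 cannot be set beside a share of all genes. With no filter 1 target gene, Ccl20 at 26 and 8 counts, was lower. By counts rather than per length, the shares in the M2+DMSO and M2+GANT61 libraries were 20.9% and 17.2% for Rela, 42.6% and 42.1% for Nfkb1, 0.910% and 1.98% for Rel, and 7.72% and 9.55% for Relb, since the genes differ in length. No paired analysis was possible because each group has 1 library, which also leaves no library to omit. Depth limits Rel and Nfkbid most, with 162 to 552 counts.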
